A study of Sus scrofa with 4 samples.

Results

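Adipokines are signalling proteins that fat cells secrete, and 10 genes for adipokines and their receptors were followed through the differentiation and stimulation of porcine intramuscular fat cells. They were taken as the probes whose gene name on the array is ADIPOQ, ADIPOR1, ADIPOR2, LEP, LEPR, RETN, AGT, RBP4, NAMPT or C1QTNF3. The rule found 23 probes of 43603 and 10 gene names of 34853, and it used no measured value. The genes themselves were chosen with earlier results of these data known. Expression was measured on 4 porcine oligonucleotide arrays in 1 color (Cy3), with 1 array for each condition. The conditions were undifferentiated porcine intramuscular preadipocytes (PIP), porcine mature adipocytes (pMA) obtained from PIP cells after 4 days in a medium with insulin, dexamethasone, octanoate and oleate, pMA given 100 μM serotonin for 12 h, and pMA given 2.5 µg/mL TNF-α for 12 h. The serotonin label itself reads μM per ml. All 4 came from a single cell line, derived from the longissimus thoracis muscle of a Duroc pig, and the methods state that RNA was pooled within each group. With 1 array per condition, replicates are lacking for every difference and p-values are not given. Differences are given as log2 ratios against the 2-fold cutoff of the methods, where a log2 ratio of 1 is a 2-fold difference.

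Adiponectin (ADIPOQ) is an insulin-sensitizing hormone of mature fat cells that signals through ADIPOR1 and ADIPOR2, and leptin (LEP) reports fat stores to the brain through the leptin receptor (LEPR). Angiotensinogen (AGT) is the precursor from which renin and then angiotensin-converting enzyme release angiotensin II, and adipose tissue is one of its known sources. RBP4 carries retinol in blood, NAMPT (visfatin) makes a precursor of NAD, resistin (RETN) is a cysteine-rich secreted protein linked to insulin resistance, and C1QTNF3 (cartonectin) belongs to the same C1q/TNF superfamily as adiponectin.

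What an array reports for a gene is the signal on a 60-base probe, and the probes that carry the findings are shown here 5′ to 3′ as the scanner files give them. The files mark these probes as unmapped and name no genome build, so no chromosome position is given. The first AGT probe starts at base 477 of the transcript that the files name for it, and AGT had the largest differences of the 10 genes.
A_72_P489129 (AGT): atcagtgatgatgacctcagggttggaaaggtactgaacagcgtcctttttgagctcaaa
Of the 5 AGT probes, A_72_P034386 and A_72_P568899 share 45 bases and are not separate measurements of the transcript. The last 30 shared bases follow, with AATAAA, the canonical polyadenylation hexamer, in capitals.
A_72_P034386 (AGT), bases 28 to 57: gttattAATAAAtgtcttgcaacAATAAAc
AATAAA stood on the printed strand of 3 of the 23 probes, beside 9.60% of all 43603 probes. Besides the AGT pair, the member probe with it was A_72_P081001 of ADIPOR2.
For ADIPOQ, both probes are shown because their weak signal in pMA is itself a result.
A_72_P165401 (ADIPOQ): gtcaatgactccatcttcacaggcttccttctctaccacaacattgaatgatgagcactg
A_72_P767053 (ADIPOQ): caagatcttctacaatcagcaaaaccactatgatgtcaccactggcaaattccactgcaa
For LEP, one probe gave signal on every array and the other hardly any. The first shares 17 bases (capitals) with a probe named TC554000, and it shares 16 bases with each of 2 further probes, one of them on the opposite strand, none of which is named leptin. The second LEP probe, A_72_P442233, shares 16 bases with a probe for CD70.
A_72_P442233 (LEP): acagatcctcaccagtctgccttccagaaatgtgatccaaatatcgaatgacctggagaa
A_72_P165551 (LEP), bases 31 to 60: gaaaataCCAGAGTTCCCTTGTGGcacaga
A_72_P036086 (TC554000), bases 18 to 47: gatttCCAGAGTTCCCTTGTGGgtgcagtg
For RBP4, a bright and a dim probe of the same transcript, from bases 512 and 218, are set side by side.
A_72_P146486 (RBP4): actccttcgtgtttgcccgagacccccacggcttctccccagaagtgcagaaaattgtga
A_72_P531116 (RBP4): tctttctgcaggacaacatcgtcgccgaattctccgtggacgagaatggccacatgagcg
Of the 3 ADIPOR2 probes, A_72_P302919 and A_72_P440141 share the 55 bases in capitals.
A_72_P302919 (ADIPOR2): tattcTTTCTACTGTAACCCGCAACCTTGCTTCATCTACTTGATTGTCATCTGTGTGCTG
The last 30 bases of the brighter NAMPT probe and of the only C1QTNF3 probe complete the set, since both genes passed the cutoff during differentiation.
A_72_P035446 (NAMPT), bases 31 to 60: tgccaaatttgaaaggcctgtactatgatt
A_72_P193002 (C1QTNF3), bases 31 to 60: ttagataaaactgaggcaagaaaaatgtaa

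All 4 arrays lay on 1 slide, so no condition had a slide of its own. Between 56.5% and 66.0% of probes were well above background, the 75th percentile of intensity lay between 479 and 566, and no spot was saturated. Levels are log2 intensities relative to that percentile, and a level is compared only within a probe, since probes differ in brightness for reasons unrelated to abundance. The pooled standard deviation between repeated spots of a probe was 0.11 to 0.15 on the log2 scale, and the scanner's own error of member probes well above background was 10.0% to 22.0% of the signal. These cover the measurement on the slide only, not the spread between cultures. Among 8 adipocyte markers on the array, FABP4, a fatty acid carrier, was at least 8.48-fold higher in pMA than in PIP cells, CIDEC, a lipid droplet protein, was 14.7-fold higher (its second probe did not pass the cutoff) and PPARG, the main adipogenic regulator, was 2.10-fold higher (log2 ratios 0.96 to 1.52 on 3 probes). ADIPOQ and the lipid droplet coat gene PLIN1 were not well above background on any pMA array, and CEBPA was above it on the TNF-α array alone. LPL and LIPE, also adipocyte markers, stayed within 2-fold on every probe, at 1.30-fold and 1.09-fold higher in pMA on the brightest. PIP cells had 5 of the 8 adipocyte markers above background and unstimulated pMA also 5. Of the preadipocyte or fibroblast markers, 4 had a ratio for differentiation and none passed 2-fold. THY1, COL1A1 and VIM had log2 ratios of -0.12, 0.11 and 0.28, and CD34 had a bound of 0.61. CDH5 and TEK of 5 endothelial markers, MYOD1 and MYF5 of 5 muscle markers, and CD163 of 2 macrophage markers were not above background on any array. In the same lists PECAM1 and KDR of endothelium, MYOG, DES and PAX7 of muscle and CD14 of macrophages were above background on all 4, and VWF of endothelium on the unstimulated pMA and TNF-α arrays. The array held 4 hepatocyte markers, which matter because liver also makes AGT and RBP4. APOB was dim on all arrays and ALB was above background on all. SERPINA1 was dim in PIP cells alone, and TTR passed in unstimulated pMA and after TNF-α alone. The number above background was 1 of 4 in PIP cells, 3 in unstimulated pMA, 2 after serotonin and 3 after TNF-α. For differentiation ALB had a log2 ratio of 0.85 (2 of 20 probes gave a ratio) and SERPINA1 a bound of 0.83.

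**Figure D1:**
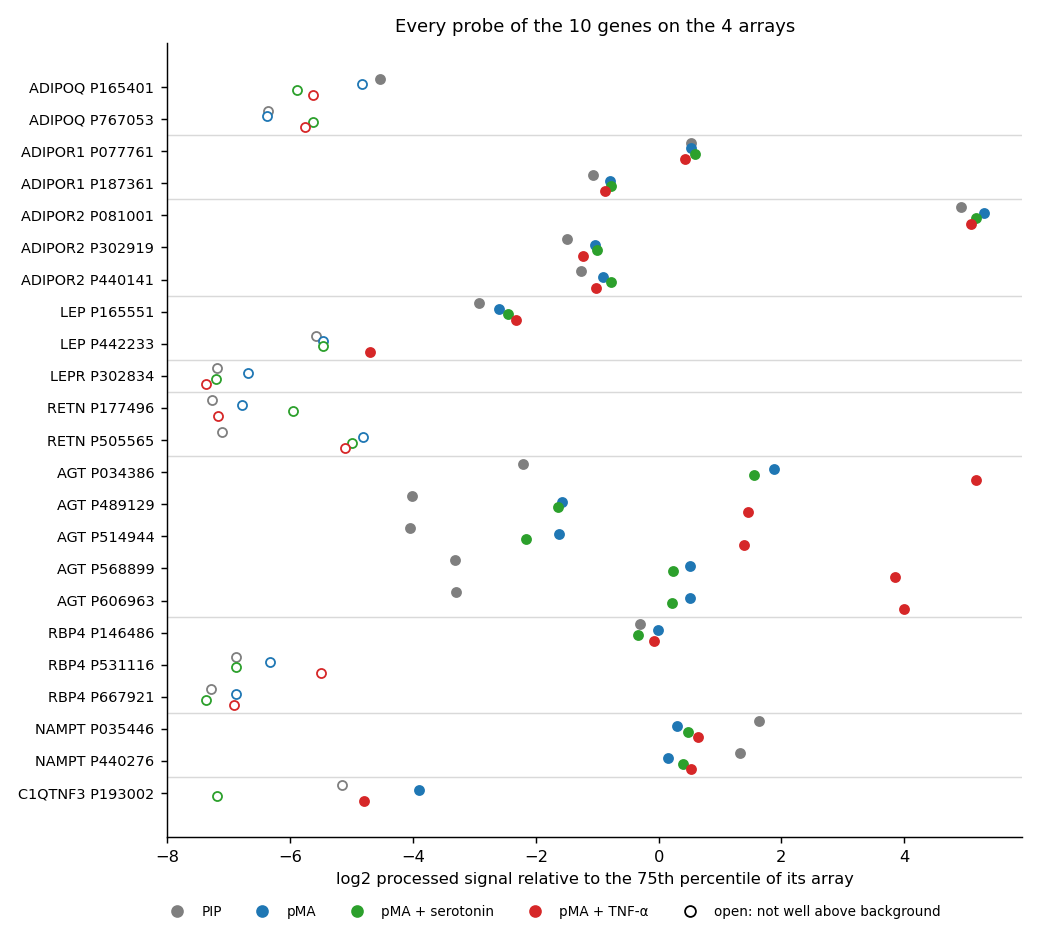
Level of all 23 probes of the 10 genes (log2 processed signal relative to the 75th percentile of its array) on the 4 arrays, with filled points well above background and open points not. The AGT rows spread by over 5 log2 units from PIP cells to TNF-α, while the ADIPOR1, ADIPOR2 and bright RBP4 rows stay within 0.5.

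During differentiation, AGT was the member that differed most between PIP cells and pMA, NAMPT was lower in pMA, and the adiponectin receptors, leptin and RBP4 stayed within 1.38-fold. Of the 10 genes, 8 had a ratio and 3 passed 2-fold, AGT and C1QTNF3 upward and NAMPT downward. Over all 18635 gene names with a ratio, 13.5% passed 2-fold, 9.92% upward and 3.56% downward. The median log2 ratio was 0.30 over the 8 members and 0.12 over all gene names. Relative to bright spike-in controls, ADIPOR2, LEP, RBP4 and ADIPOR1 had log2 ratios of 0.75, 0.69, 0.67 and 0.38. The median of all gene names was then 0.52. In such bulk RNA a change in the share of cells that express a gene and a change in RNA per cell cannot be told apart.

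The processed intensity of the brightest AGT probe, A_72_P034386, was 111 in PIP cells, 1765 in pMA, 1659 after serotonin and 20152 after TNF-α. Its level was thus lowest in PIP cells, similar in the 2 pMA arrays without TNF-α, and highest with TNF-α. On this probe AGT was 17.1-fold higher in pMA than in PIP cells, with a log2 ratio of 4.10 and a scanner error of 0.21. With both arrays above background this placed it at rank 4 from the top of 4702 gene symbols. The other probes gave the same direction and different sizes. A_72_P568899 had intensities of 51.8, 680, 667 and 8098 in the same order of arrays, which gave 14.1-fold. A_72_P606963, from another transcript model, had 52.5, 683, 656 and 8888 and gave 14.0-fold. The 2 probes with the least signal in PIP cells gave the smallest ratios. A_72_P489129, with 31.9, 161, 181 and 1525, gave 5.44-fold, and A_72_P514944, with 31.0, 156, 127 and 1466, gave 5.41-fold. All 5 were well above background on all 4 arrays, and their log2 ratios ranged from 2.44 to 4.10.

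**Figure D2:**
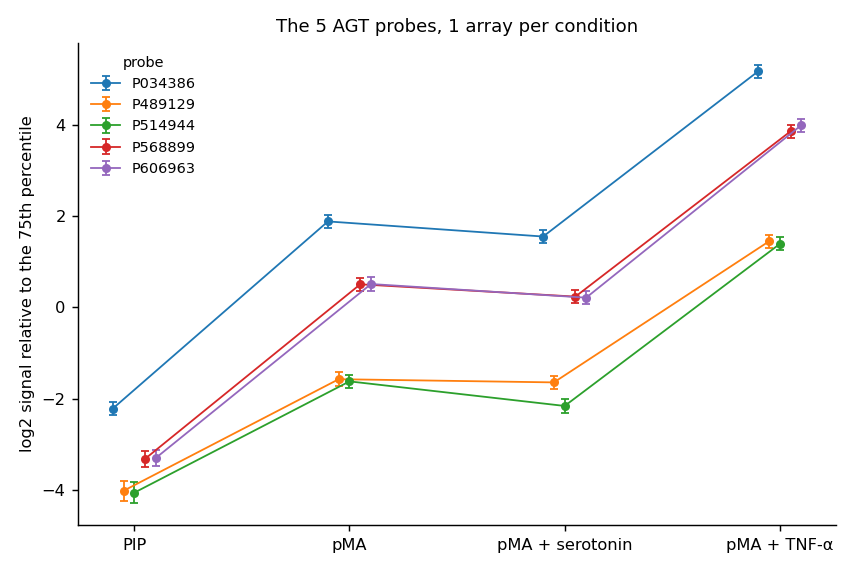
Level of the 5 AGT probes (log2 signal relative to the 75th percentile) on the 4 arrays. Bars are the scanner's error and lines only link the values of a probe. Every probe is lowest in PIP cells and highest after TNF-α, and the pMA and serotonin arrays lie within 0.54 of each other on every probe.

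NAMPT, the rate-limiting enzyme of the NAD salvage pathway, had intensities of 1596 in PIP cells, 591 in pMA, 789 after serotonin and 871 after TNF-α on A_72_P035446. The PIP value stood apart from all 3 pMA arrays. In pMA it was 2.51-fold lower than in PIP cells (log2 ratio -1.33, scanner error 0.20). The second probe, A_72_P440276, had 1290, 533, 749 and 807, and a log2 ratio of -1.17. The call depends on the scaling: relative to bright spike-in controls NAMPT had a log2 ratio of -0.95, inside the cutoff. Relative to the median of all gene names it lay between -1.75 and -1.30 under all 9 settings.

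C1QTNF3 was near the limit of detection. Its only probe had intensities of 14.5 in PIP cells, 32.0 in pMA, 3.87 after serotonin and 20.0 after TNF-α, and it was well above background in pMA and after TNF-α alone. A bound was therefore formed by setting the dim array to the lowest level that passed as well above background there. For C1QTNF3 in pMA over PIP cells the bound was 2.34-fold, a log2 ratio of 1.23. It lay close to the plain log2 ratio of 1.25. The scanner error, 23.1% of the signal in PIP cells and 15.9% in pMA, is not part of the bound. This bound went inside 2-fold after scaling to the median, quantile normalization and normexp background correction.

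Of the hormone genes proper, ADIPOQ was not detected in pMA. Its probe A_72_P165401 had intensities of 22.3 in PIP cells, 16.8 in pMA, 9.52 after serotonin and 11.3 after TNF-α, and it was well above background in PIP cells alone. The second probe, A_72_P767053, was dim everywhere, with intensities from 5.76 to 11.4. A further 6 probes described as adiponectin under other names were not well above background on any array, so that 1 of 8 adiponectin probes passed on the PIP array and 0 of 8 on each pMA array. The highest level of any of the 8 in unstimulated pMA was -4.66, beside a lowest passing level of -4.64 on that array. That probe, A_72_P732525, had intensities of 3.55 in PIP cells, 18.9 in pMA, 3.77 after serotonin and 3.39 after TNF-α. The lowest passing level was -5.13 in PIP cells, -5.12 after serotonin and -5.25 after TNF-α. This limit was thus highest on the unstimulated pMA array, and the counts of passing probes do not show a loss of adiponectin in pMA. The bound from A_72_P165401 is at least 1.08-fold lower in pMA, which is no difference beyond the scanner error.

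LEP gave different pictures on its 2 probes. A_72_P165551, which shares bases with 3 probes of other names, had intensities of 68.1, 78.6, 104 and 112 in PIP cells, pMA, serotonin and TNF-α, and log2 ratios between -0.13 and 0.31 in the 4 comparisons. A_72_P442233 had 10.8, 10.8, 12.9 and 21.5, and passed as well above background after TNF-α alone. A bound against unstimulated pMA could not be had there, because the TNF-α level of -4.70 lay below the lowest passing level of the pMA array. The 2 RETN probes, A_72_P177496 and A_72_P505565, were dim on all 4 arrays, with intensities up to 17.7.

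The receptors of adiponectin were steady. On ADIPOR1, A_72_P077761 had intensities of 743, 690, 849 and 751 in PIP cells, pMA, serotonin and TNF-α, and A_72_P187361 had 247, 277, 331 and 304. After scaling, the log2 ratios of both probes lay between -0.10 and 0.27 in the 4 comparisons. ADIPOR2 had 15635, 18753, 20439 and 18919 on A_72_P081001, and its 3 probes gave log2 ratios of 0.37 to 0.46 for differentiation, -0.12 to 0.12 for serotonin and -0.21 to -0.12 for TNF-α. The scanner error of the brightest probe's ratio was 0.20 in each, and no ADIPOR1 or ADIPOR2 ratio passed 2-fold. The only LEPR probe, A_72_P302834, was dim on all 4 arrays, with intensities from 3.37 to 4.65. The 3 probes of LEPROT, a gene whose transcript overlaps that of the leptin receptor, were well above background everywhere, and the brightest had levels of 6.45, 6.55, 6.55 and 6.55.

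RBP4 was measured by 1 of its 3 probes. A_72_P146486 had intensities of 418 in PIP cells, 474 in pMA, 446 after serotonin and 533 after TNF-α. Its log2 ratios were 0.29 for differentiation, -0.33 for serotonin and -0.05 for TNF-α, none of them past 2-fold. A_72_P531116 and A_72_P667921 of the same transcript were dim on every array, with intensities from 3.27 to 12.3. The RBP4 values therefore rest on 1 probe of 3.

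**Figure D3:**
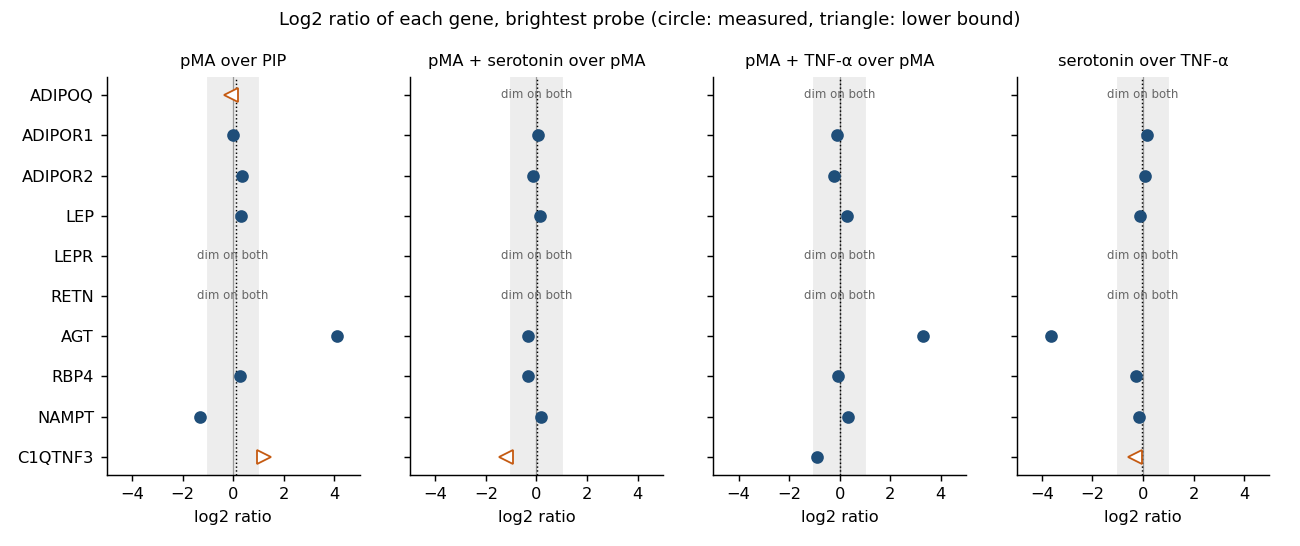
Log2 ratio of each of the 10 genes on its brightest probe in the 4 comparisons, with circles for ratios measured on both arrays and triangles for lower bounds. The gray band is the range within 2-fold and the dotted line the median of all gene names. AGT leaves the band in all comparisons but serotonin over pMA.

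Serotonin and TNF-α were each compared with the same unstimulated pMA array, which also stands in the differentiation ratios. An error of that array enters all these ratios, with the opposite sign in differentiation. A rise in pMA over PIP cells and a fall after stimulation in the same gene are therefore not independent results. Among the members C1QTNF3 had this pattern, with bounds of 1.23 for differentiation and -1.22 after serotonin. After TNF-α, AGT was the only member past 2-fold among 7 with a ratio, beside 3.55% of 19785 gene names (2.21% upward and 1.34% downward). The brightest AGT probe was 9.77-fold higher than in unstimulated pMA, with a log2 ratio of 3.29 and a scanner error of 0.20, at rank 14 among 4868 gene symbols. The 5 probes agreed better here than for differentiation, with log2 ratios from 3.01 to 3.48. Under the other settings the AGT log2 ratio lay between 3.21 and 3.36. The adipocyte markers CIDEC, FABP4 and LPL were 3.83-fold, 2.72-fold and 2.42-fold higher on the same array, and their part in the AGT difference was not tested. C1QTNF3 had a measured log2 ratio of -0.90 with a scanner error of 0.35. After quantile normalization it reached -1.11, past the cutoff, and with normexp correction it was -0.39. NAMPT had 0.34 on its brighter probe and 0.37 on the other, and LEP had 0.28. The median over the 7 members was -0.05, and over all gene names 0.01.

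After serotonin, C1QTNF3 was the only member past 2-fold among 7 with a ratio, beside 6.82% of 19093 gene names (2.08% upward and 4.74% downward). It was not well above background there, and was at least 2.33-fold lower than in unstimulated pMA. With normexp correction the bound was inside the cutoff, at a log2 ratio of -0.82. Among the markers, FABP4 was 6.83-fold lower and LPL 5.32-fold higher on this array, and COL1A1 of fibroblasts, PECAM1 of endothelium and DES of muscle were 2.66-fold, 2.75-fold and 2.03-fold lower on their brightest probes. The log2 ratios of the 4 PECAM1 probes ranged from -1.46 to -0.44 and those of the 4 DES probes from -2.59 to -0.55, with 1 bound in each, and COL1A1 had 1 probe. Their part in the C1QTNF3 difference was not tested. AGT had log2 ratios from -0.54 to -0.07 on its 5 probes, all below 0 and all within 2-fold, and -0.33 on the brightest with a scanner error of 0.20. The remaining members had ratios between -0.33 and 0.18. The median over the 7 members was -0.12, and over all gene names 0.01.

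Of the members with a ratio, AGT differed most between the 2 stimulated arrays. It was 12.3-fold lower after serotonin than after TNF-α (log2 ratio -3.62), and the 5 probes ranged from -3.78 to -3.09. AGT was the only one of 7 members past 2-fold, beside 6.90% of 21864 gene names (1.82% upward and 5.08% downward). At rank 8 from the bottom among 5006 gene symbols, it was one of the genes furthest below TNF-α. ADIPOR1, ADIPOR2, LEP, RBP4 and NAMPT lay between -0.27 and 0.16, and C1QTNF3 was at least 1.25-fold lower.

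**Figure D4:**
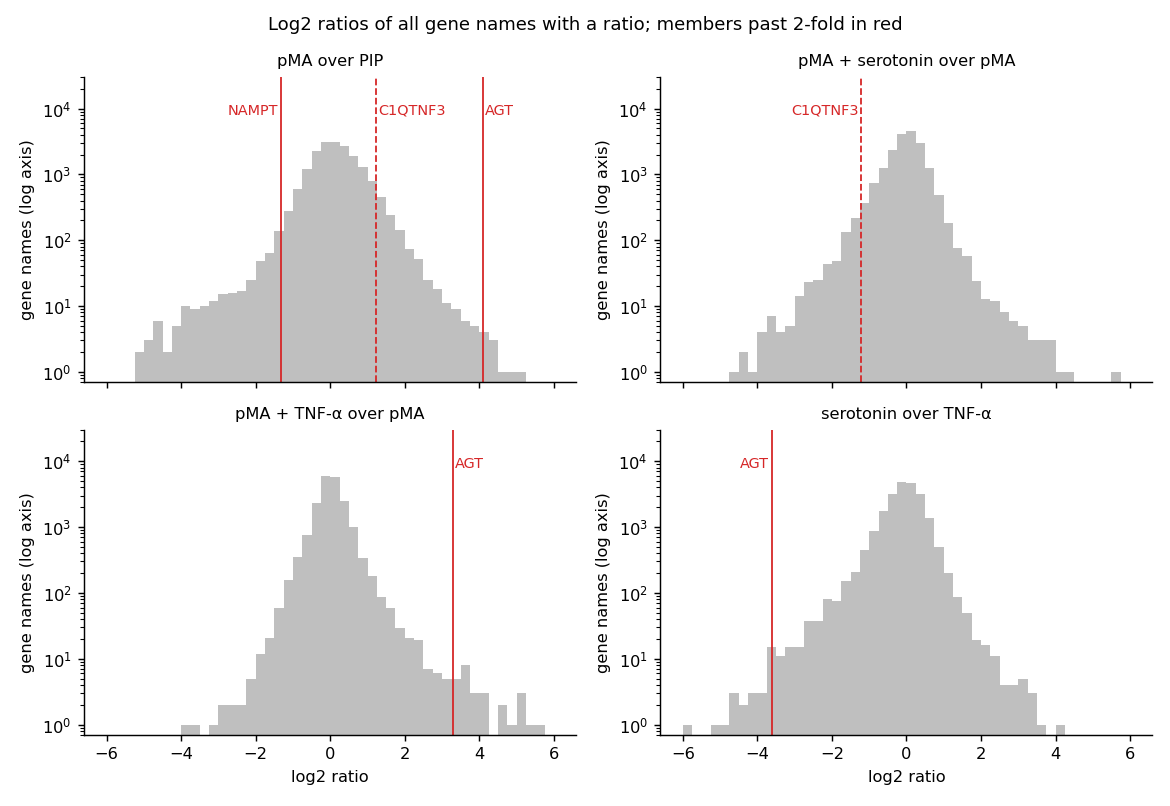
Number of gene names (log axis) by log2 ratio in bins of 0.25 for the 4 comparisons, with members past 2-fold as red lines, solid where measured and dashed where a lower bound. AGT lies in the thin tail at 4.10, 3.29 and -3.62, whereas NAMPT at -1.33 and C1QTNF3 at its bounds lie on the shoulders.

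Genes that act with these adipokines were taken from lists written from general knowledge, with the earlier report of these data known. In the renin-angiotensin system, which turns AGT into angiotensin II, the array held 7 of 10 listed genes, and 5 had a ratio for differentiation, for serotonin and for TNF-α. For differentiation 1 of 5 passed 2-fold, upward, beside 9.92% of all gene names. ACE, the angiotensin-converting enzyme, was 2.23-fold higher in pMA on its only bright probe, with levels of 5.43 in PIP cells, 6.59 in pMA, 6.34 after serotonin and 6.41 after TNF-α, while its other 2 probes were dim on all arrays. After serotonin 2 of 5 were lower by 2-fold, beside 4.74% of all gene names. AGTR1, the main angiotensin II receptor, had levels of 3.48, 3.81, 2.74 and 4.21 in the same order, 2.10-fold lower after serotonin than in unstimulated pMA, and its second probe gave a log2 ratio of -1.03. MME, a peptidase of angiotensins, was at least 2.03-fold lower. None of 5 passed 2-fold after TNF-α, where 3.55% of all gene names did, and the receptor AGTR2 was dim on all arrays. The median over the 5 genes was 0.36 for differentiation, -0.62 for serotonin and -0.18 for TNF-α.

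In retinol handling, which starts from RBP4, 10 of 14 listed genes were on the array and 6 or 7 had a ratio to or from unstimulated pMA. The genes past 2-fold were STRA6 for differentiation and RDH10 after serotonin, and none after TNF-α, on the brightest probes. The second probe of CRABP1, a cytoplasmic retinoic acid carrier, gave bounds of 1.83 for differentiation and -1.95 for serotonin and a ratio of -1.24 for TNF-α on the log2 scale, where the brightest gave -0.13, -0.37 and -0.13. STRA6, the membrane receptor of RBP4, was 4.52-fold higher in pMA, and its 3 probes had log2 ratios from 0.86 to 2.46. Its probes carry another name in the files and were assigned through a RefSeq accession. RDH10, which oxidizes retinol, was 3.15-fold higher after serotonin, with levels of -0.03, -0.91, 0.75 and -1.29. The median of this list was -0.12 for differentiation, 0.03 for serotonin and -0.10 for TNF-α.

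In adiponectin signalling, 7 of 11 listed genes had a ratio. CDH13, T-cadherin, which binds adiponectin on the cell surface, was 2.34-fold higher in pMA than in PIP cells, and on the brightest probes none passed 2-fold after either stimulation. The second CDH13 probe had log2 ratios of 1.15 for differentiation, -1.16 after serotonin and -0.32 after TNF-α, where the brightest had 1.23, -0.50 and 0.86. On the brightest probe the levels were -3.19, -1.96, -2.46 and -1.10, so that CDH13 was 2.57-fold lower after serotonin than after TNF-α, on 1 of 2 probes past the cutoff. In leptin signalling, 6 of 7 listed genes had a ratio. On the brightest probes none passed 2-fold for differentiation or TNF-α. For differentiation another probe did so for STAT3, at 1.01 beside 0.27 on the brightest of 4, and for IRS1, with a bound of 1.04 beside 0.33. SOCS3, an inhibitor of leptin receptor signalling, was 3.30-fold higher after serotonin, with levels of 1.87, 2.37, 4.09 and 2.94, and its second probe gave a log2 ratio of 1.08. For resistin, TLR4, a proposed receptor, was at least 2.41-fold higher in pMA than in PIP cells, and 1 of its 4 probes gave that bound. NAD metabolism had 2 genes with a ratio, SIRT1 and PARP1, and neither passed 2-fold in any comparison. Among 5 relatives of C1QTNF3 on the array, 3 had a ratio for differentiation, 3 for serotonin and 4 for TNF-α. C1QTNF6 was 2.16-fold lower after serotonin (log2 ratio -0.74 on its second probe) and C1QTNF1 2.04-fold higher after TNF-α. None of the 3 with a ratio for differentiation passed 2-fold.

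Other adipokines and their receptors had 11 of 21 listed genes with a ratio in each comparison. For differentiation 5 of 11 passed 2-fold, all higher in pMA, beside 9.92% of all gene names. ANGPTL4, a secreted inhibitor of lipoprotein lipase, was 15.3-fold higher, with log2 ratios from 3.94 to 4.33 on 3 probes, and CCL2, a monocyte attractant, was 2.32-fold higher. SFRP5, LCN2 and ASIP were the others, dim in PIP cells and at least 11.4-fold, 4.37-fold and 2.58-fold higher. These 3 were named after their values were seen. For differentiation 2 dimmer probes of GRN also passed the cutoff, at log2 ratios of 1.15 and 1.35 beside 0.33 on the brightest, and the dimmer of 2 IL6 probes did so at -1.44 beside -0.83. After serotonin 3 of 11 were lower by 2-fold, beside 4.74% of all gene names. They were METRNL (2.26-fold, also named through an accession), LCN2 (2.09-fold) and ASIP (at least 2.26-fold). For LCN2 and ASIP, the rise for differentiation and this fall share the unstimulated pMA array and are not independent. After TNF-α, IL6 was 3.09-fold and CCL2 2.81-fold higher, 2 of 11 genes beside 2.21% of all gene names. Both are cytokines known as TNF-α targets, and the rest of the list stayed within 2-fold, with LCN2 at a log2 ratio of 0.13 and TNF at 0.04. In serotonin against TNF-α, 5 of 11 were lower by 2-fold and 0 higher, beside 5.08% and 1.82% of all gene names. IL6 (4.19-fold), CCL2 (3.21-fold), METRNL (2.56-fold) and LCN2 (2.28-fold) were the furthest below. Whether AGT shares a regulation with any of them was not tested.

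**Figure D5:**
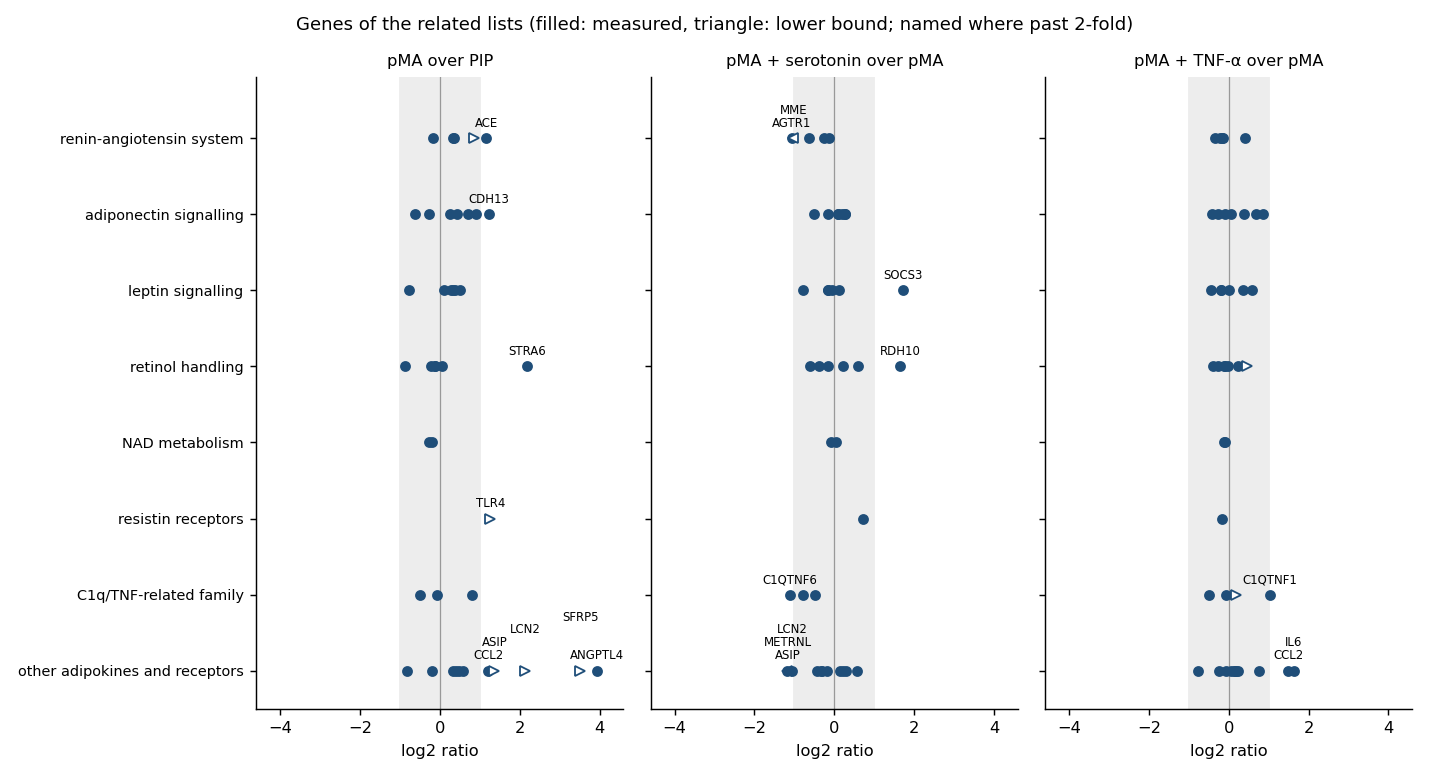
Log2 ratios of the genes in 8 related lists in the 3 comparisons with unstimulated pMA, filled where measured and triangles where a lower bound, with names past 2-fold and the range within 2-fold in gray. STRA6 stands at 2.18 and ANGPTL4 at 3.94 for differentiation, and SOCS3 at 1.72 and RDH10 at 1.65 after serotonin.

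The profiles of the 6 members well above background on all 4 arrays were set against 4675 other gene symbols that were also above it, by the Euclidean distance of levels centered on each gene's mean. These distances describe 4 arrays and share their errors. For AGT the nearest was CIDEC at a distance of 1.47, followed by KLF11 at 2.45 and FCHO1 at 2.59. On its brightest probe CIDEC had levels of -4.69, -0.82, -0.54 and 1.12. Its second probe gave 0.75 on the log2 scale for differentiation, where the brightest gave 3.87, and 1.88 beside 1.94 for TNF-α. The likeness therefore rests on 1 of 2 CIDEC probes. The other 5 members had neighbours at 0.13 or closer. For NAMPT these were PGM3 (0.09), PPIB (0.11) and FYN (0.13), for ADIPOR1 ISG20L2 (0.02), BIN3 (0.03) and PIGX (0.03), and for ADIPOR2 CHM (0.03), PAX9 (0.05) and COX2 (0.05). For LEP they were NAT10 (0.03), ZBTB8A (0.05) and SLA-DMA (0.06), and for RBP4 STS (0.04), RNF39 (0.06) and FSIP1 (0.06). The distances of these 5 members lie below the standard deviation that repeated spots give a log2 ratio, 0.17 to 0.20. Which genes are nearest to them is therefore not resolved. Their median distance to all symbols compared was 0.47 to 1.13.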

How the data were processed

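The authors labelled RNA with Cy3 and hybridized it to porcine arrays, and per the file headers Agilent Feature Extraction (10.7.3.1) made the deposited intensity values with background subtracted. The methods also name a mouse array and a 2-color protocol, which the files do not show. The deposited value table holds ratios, each array's processed intensity divided by about its 75th percentile over all spots, and was used as an alternative. The deposited flags for background and outliers were used as given. Here, control and outlier spots were left out, repeated spots averaged, and log2 intensities centered on each array's 75th percentile (Python 3.11.15, pandas 2.3.3, limma 3.58.1 for normexp with offset 50). Each gene takes the values of its brightest probe, by the mean over arrays. For a probe above background on 1 of 2 arrays, the dim value was set to the higher of its own and that array's lowest passing level, and the ratio is a bound. Ratios were computed for the 4 comparisons with a 2-fold cutoff, and the calculation was run on simulated data. Changes for measured ratios were planted only in brighter probes, with noise below that of repeated spots. The check that bounds stay within the planted change could not fail, so it says nothing about the bounds. The arrays' number limits precision.

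Members and lists were chosen with earlier results of these data known. Named were all member probes, list genes past 2-fold (up to 4, measured on both arrays, where more passed), and the 3 nearest profiles. Symbols came from the files, and 5 list genes through RefSeq accessions (Sscrofa11.1). Some list genes are not reported here.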

Additional observations from a re-analysis of the deposited data

How the results depend on the processing

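The 10 alternatives were run for every comparison, and no member past 2-fold changed direction. AGT stayed past 2-fold for differentiation (log2 ratio 3.48 to 4.48), TNF-α (3.21 to 3.36) and serotonin against TNF-α (-3.62 to -3.50). For differentiation, the number of members higher by the cutoff was 2, and 1 after scaling to the median, quantile normalization, normexp correction, requiring both arrays above background or a 4-fold cutoff, each time through C1QTNF3, whose bound was 0.88 after scaling to the median, 0.73 after quantile normalization and 0.45 after normexp correction. The number lower was 1, and 0 with spike-in scaling or a 4-fold cutoff (NAMPT). The members' median of 0.30 became -0.0505 after scaling to the median and 0.69 with spike-in scaling, which moved the median of all gene names from 0.12 to -0.22 and 0.52. For serotonin the number lower was 1, 0 with normexp correction, both arrays above background or a 4-fold cutoff, and 2 with no filter, which added ADIPOQ. For TNF-α the number lower was 0, and 1 after quantile normalization or at 1.5-fold, and for serotonin against TNF-α it was 1, and 2 with no filter, both through C1QTNF3. With no filter, dim RETN had a log2 ratio of 2.31 for differentiation.

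Counts of all gene names past the cutoff moved more than 1.5 times as follows. For differentiation 1849 higher became 854 (median), 1062 (quantile), 4087 (spike-in), 465 (normexp), 1204 (both above background), 5812 (no filter), 211 (4-fold) and 4361 (1.5-fold), and 664 lower became 1650 (median), 307 (spike-in), 358 (normexp), 1316 (no filter), 132 (4-fold) and 1979 (1.5-fold). With normexp, no filter, 4-fold and 1.5-fold in this order, serotonin went from 398 higher to 157, 1299, 57 and 1591 and from 905 lower to 421, 2602, 130 and 2418, and TNF-α from 438 higher to 193, 1918, 86 and 1363 and from 265 lower to 74, 1317, 14 and 1038, with 443 lower after quantile normalization. Serotonin against TNF-α went from 399 higher to 156, 1233, 47 and 1652, with 629 after quantile normalization, and from 1110 lower to 538, 3220, 227 and 2970. The causes were not tested. No paired analysis was possible because each group has 1 array. No array could be left out for the same reason. Signal over background limits ADIPOQ, LEPR, RETN and C1QTNF3.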
